A study of Homo sapiens with 6 samples.

Results

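Enzymes of arginine and tryptophan metabolism were followed in human NCI-H460 lung cancer cells with and without knockdown of PRMT5. PRMT5 is the main enzyme that places symmetric dimethyl marks on arginine residues of proteins. The members were chosen by gene name and comprised 10 of the 58825 genes in the data. ARG1, ARG2 and NOS2 act on arginine, ODC1 and OAT act on its product ornithine, and ASS1 and ASL rebuild arginine. IDO1 and TDO2 act on tryptophan, and KYNU acts on kynurenines further down the same pathway. Of the 10 genes, 9 had a count in at least 1 library and 8 passed the filter on low counts. ARG2 (1.95-fold) and IDO1 (2.16-fold) were higher in each PRMT5-shRNA library than in any NC-shRNA library, while the log2 fold changes of the other 6 tested enzymes lay between -0.37 and 0.00. None of these differences passed an adjusted p of 0.05 when tested with edgeR's quasi-likelihood method.

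NCI-H460 is an established human lung cancer line, labelled here as lung adenocarcinoma and more often described as a large cell carcinoma. All 6 cultures were infected with lentivirus, and RNA-seq was done on each. A control hairpin, labelled GFPkd and called NC-shRNA in the study, was carried by 3, and a hairpin against PRMT5 (PRMT5-shRNA) by the other 3. The methods describe stably silenced cells and list 3 PRMT5 hairpins, and which of them was sequenced is not given in the sources used here, so no second hairpin could be compared. The study describes the libraries of each group as biological replicates. In these bulk cultures, fewer cells of a type and less RNA per cell cannot be told apart.

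Arginine is drained by competing enzymes. Arginases split it into urea and ornithine, nitric oxide synthases turn it into nitric oxide and citrulline, and ASS1 followed by ASL rebuild it from citrulline. Ornithine then goes to polyamines through ODC1 or toward proline and glutamate through OAT. Tryptophan enters the kynurenine pathway through IDO1 or TDO2, and KYNU acts further down that pathway. Depletion of either amino acid, and the kynurenines, are known to restrain T cells, which is why ARG2 and IDO1 are studied in tumours.

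The libraries held between 53531257 and 70518401 estimated counts. A count of exactly 4 was found for 1214 to 1319 genes per library, whereas a count of 3 or 5 was found for 283 to 546. About 4 counts were therefore read as 1 sequenced fragment, and a floor of 12 counts, about 3 fragments, was used (0.170 to 0.224 CPM before TMM scaling, covering counting error only). PRMT5 fell by 1.62 on the log2 scale (edgeR adjusted p = 0.0063), from 133 ± 8.90 to 43.2 ± 4.28 CPM (counts scaled by TMM library size, SD, n = 3 each). Among epithelial markers the keratins were abundant, with KRT8 at 110 ± 2.46 FPKM in NC-shRNA cells, but EPCAM (0.5 ± 0.02 FPKM) and CDH1 (0.137 ± 0.0321 FPKM) were low. Markers of other cell types are given after the pathway genes.

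The levels of the enzymes spanned a wide range in NC-shRNA cells. Per transcript length (FPKM, SD, n = 3), the order was ASS1 at 616 ± 3.22, ODC1 at 101 ± 10.2, OAT at 17.3 ± 0.324, ASL at 8.21 ± 0.296, KYNU at 4.12 ± 0.189, ARG2 at 1.04 ± 0.165, TDO2 at 0.257 ± 0.0306 and IDO1 at 0.110 ± 0.0200. The values of neighbours in this order did not overlap. In PRMT5-shRNA cells the order was the same except at the bottom, where IDO1 (0.253 ± 0.0651 FPKM) and TDO2 (0.203 ± 0.0945 FPKM) overlapped. The ASS1 level is uncertain to the extent that reads were shared with its 11 annotated pseudogenes, of which 7 had counts, up to 0.770 FPKM.

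**Figure D1:**
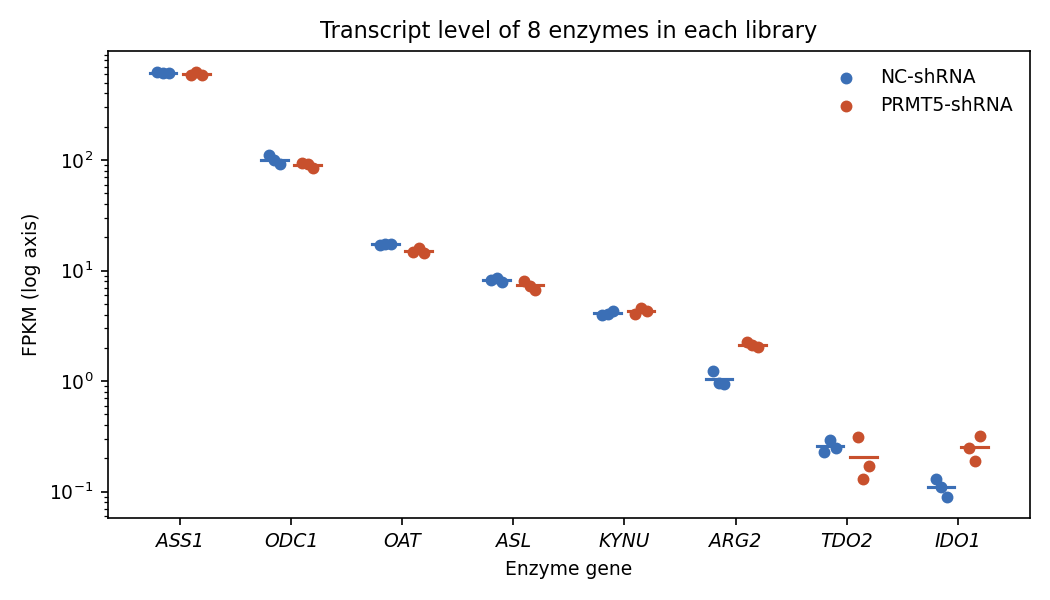
FPKM of each enzyme in each library on a log axis, NC-shRNA and PRMT5-shRNA libraries as separate points. Horizontal lines are group means. ASS1 is highest and IDO1 lowest in NC-shRNA cells, and all PRMT5-shRNA points lie above all NC-shRNA points for ARG2 and IDO1 and below them for OAT.

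The arginases were represented by ARG2 alone. ARG1, the cytosolic arginase of the hepatic urea cycle, had 0 counts in all 6 libraries. ARG2 (ENSG00000081181, chromosome 14, 67619798 to 67651720, plus strand, GRCh38), the mitochondrial arginase, had counts of 231, 182 and 157 under NC-shRNA and of 320, 388 and 307 under PRMT5-shRNA. Scaled to library size, ARG2 was at 3.44, 2.63 and 2.53 CPM in NC-shRNA and at 5.86, 5.55 and 5.34 CPM in PRMT5-shRNA cells. The groups did not overlap, and the highest control library was still well below the lowest knockdown library.

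The means of ARG2 were 2.86 ± 0.502 and 5.58 ± 0.265 CPM (SD, n = 3 each), a fold of 1.95. The log2 fold change was 0.96 (standard error 0.168, 95% interval 0.56 to 1.36), with an unadjusted p of 7.39e-04 and an adjusted p of 0.158 by edgeR. The exact two-sided permutation test gave p = 0.10, the smallest value that 3 libraries against 3 allow. DESeq2, run on the undivided counts only, gave an adjusted p of 6.75e-04. Over all 15 alternatives the adjusted p ranged from 6.75e-04 to 0.384 and the log2 fold change from 0.62 to 1.11. The call thus depended on the test and the direction did not. ARG2 overlaps VTI1B, a vesicle trafficking gene on the other strand, over 4646 bases. The log2 fold change of VTI1B was -0.14 (edgeR adjusted p = 0.404), the opposite sign to ARG2.

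Sequence around the ARG2 start is shown because ARG2 was the most clearly separated arginine enzyme. Both strands of the promoter windows given by RefSeq (GRCh38.p14), from 250 bases before to 50 bases after each start, were searched for 6 motifs, none of which contains another. The search covered 8 of the 10 members. ARG2 held only the full cAMP response element, TGACGTCA, which reads the same on both strands. It occurred 2 times, in capitals here:
ARG2, chr14:67619670-67619797, plus strand: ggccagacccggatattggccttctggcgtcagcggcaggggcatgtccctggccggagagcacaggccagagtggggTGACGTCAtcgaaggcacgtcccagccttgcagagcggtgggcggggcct
ARG2, chr14:67619845-67619874, plus strand: caatgtggcggTGACGTCAcggggcgggcg

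RefSeq places the start at 67619920, downstream of the GENCODE start at 67619798. The first match begins 172 bases and the second 64 bases before the RefSeq start, which is 50 bases before and 58 bases after the GENCODE start. At least 1 match was present in 642 of 34943 RefSeq promoters (1.84%) and at least 2 in 21 (0.0601%). None of the other 7 members searched held it (ARG1, ASL, ASS1, KYNU, OAT, ODC1 and TDO2). The interferon-related GAS motif TTCNNNGAA (7.66% of promoters) occurred 2 times in KYNU, and the xenobiotic response core GCGTG (36.5%) 3 times in ODC1 and 2 times in OAT. The core of the interferon-stimulated response element (3.57%), the E-box CACGTG (7.23%) and the amino acid response core TTGCATCA (0.87%) occurred in none of the 8. These letters describe the sequence and measure no binding.

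NOS2, the inducible nitric oxide synthase, had 4 counts in NC-shRNA replicate 2 and 0 in the other 5 libraries, below the floor, so no difference was detectable at this depth. NOS1 did not exceed 8 counts in any library, and NOS3, the endothelial form, had 12, 0 and 4 counts in NC-shRNA and 24, 21 and 14 in PRMT5-shRNA cells (edgeR adjusted p = 0.469). GATM, which begins creatine synthesis from arginine, had 0 counts in all 6 libraries. ARG2 therefore made up 97.4 to 99.0% of the summed FPKM of ARG1, ARG2, NOS1, NOS2, NOS3 and GATM in every library. That sum was 1.06 ± 0.176 FPKM in NC-shRNA and 2.17 ± 0.118 FPKM in PRMT5-shRNA cells (SD, n = 3 each).

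The enzymes downstream of arginase did not follow ARG2. OAT, which turns ornithine toward glutamate and proline, was at 70.1, 70.5 and 69.4 CPM in NC-shRNA and at 56.6, 62.2 and 55.1 CPM in PRMT5-shRNA cells. All knockdown libraries lay below all controls, and the log2 fold change was -0.27 (95% interval -0.43 to -0.11), with an unadjusted p of 0.00538 and an adjusted p of 0.224 by edgeR and 0.0549 by DESeq2. ODC1, the first and rate-limiting enzyme of polyamine synthesis, was at 111.61, 99.66 and 91.22 FPKM in NC-shRNA and at 94.68, 92.81 and 84.58 FPKM in PRMT5-shRNA cells. The groups overlapped, with a log2 fold change of -0.22 (95% interval -0.45 to 0.02, edgeR adjusted p = 0.419). For ODC1 it was -0.12 without NC-shRNA replicate 1 and -0.30 without NC-shRNA replicate 3.

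The enzymes that rebuild arginine were also level or slightly lower. ASS1, which joins citrulline and aspartate, was at 619.66, 615.89 and 613.26 FPKM in NC-shRNA and at 590.25, 626.02 and 592.70 FPKM in PRMT5-shRNA cells. The groups overlapped, and the interval of the log2 fold change, -0.21 to 0.03 around -0.09, was narrow (edgeR adjusted p = 0.488). ASL, which releases arginine from argininosuccinate, was at 8.28, 8.47 and 7.89 FPKM in NC-shRNA and at 8.10, 7.28 and 6.73 FPKM in PRMT5-shRNA cells (log2 fold change -0.22, 95% interval -0.45 to 0.01, edgeR adjusted p = 0.410). ASL shares 5798 bases and its strand with AC068533.4, whose counts were 243, 272 and 275 in NC-shRNA and 0, 188 and 243 in PRMT5-shRNA cells, so counting could have divided reads between the genes.

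**Figure D2:**
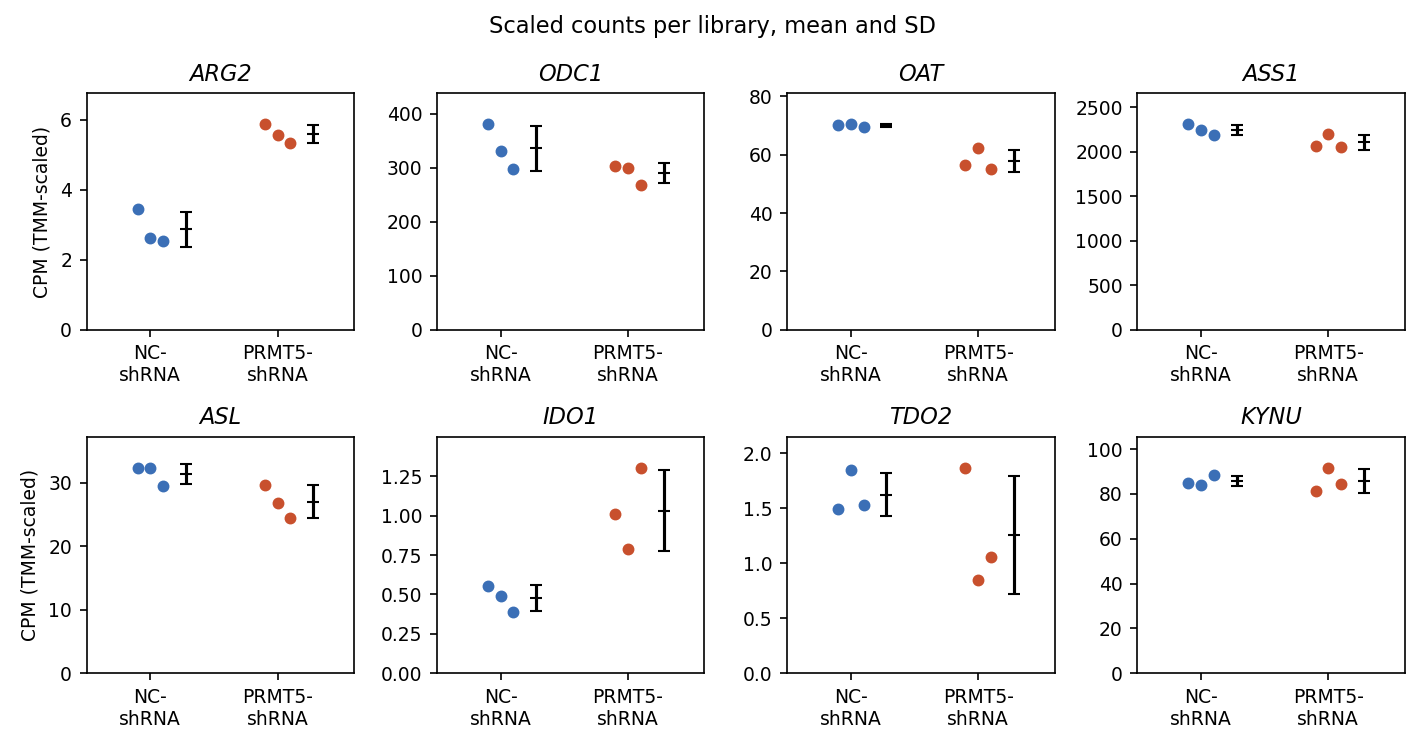
TMM-scaled CPM of the 8 tested enzymes, 1 panel each with its own axis from 0, libraries as points and the mean with SD as a bar. ARG2 and IDO1 points of PRMT5-shRNA cells lie above all NC-shRNA points, OAT points lie below, and the other 5 enzymes overlap.

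Transcripts of the enzymes that start the kynurenine pathway were low in all libraries. IDO1 (ENSG00000131203, chromosome 8, 39902275 to 39928444, plus strand, GRCh38), the interferon-inducible dioxygenase that opens the tryptophan ring, had 37, 34 and 24 counts in NC-shRNA and 55, 55 and 75 in PRMT5-shRNA libraries. At 4 counts per fragment this is between 6 and 9.25 fragments in NC-shRNA and between 13.75 and 18.75 in PRMT5-shRNA libraries. All were above the floor, but few fragments stand behind each value.

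IDO1 was at 0.551, 0.490 and 0.386 CPM in NC-shRNA and at 1.01, 0.786 and 1.3 CPM in PRMT5-shRNA cells. No knockdown library reached down to a control. The means were 0.476 ± 0.0834 and 1.03 ± 0.260 CPM (SD, n = 3 each), a fold of 2.16. The log2 fold change was 1.11 (standard error 0.325, 95% interval 0.34 to 1.88), with an unadjusted p of 0.0114 and an adjusted p of 0.272 by edgeR and 0.155 by DESeq2. The exact two-sided permutation test gave p = 0.10. Over 12 alternatives the log2 fold change stayed positive, from 0.17 on the log2(FPKM + 1) scale, which understates changes of low genes, to 1.27, and none passed the adjusted threshold (adjusted p 0.155 to 0.531). The 3 annotated genes overlapping IDO1 had 0 counts in every library.

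TDO2, the dioxygenase of liver that catalyses the same step, did not move with IDO1. It had 100, 128 and 95 counts in NC-shRNA and 102, 59 and 61 in PRMT5-shRNA libraries. Scaled to library size, PRMT5-shRNA replicate 1 (1.87 CPM) lay just above the highest control (1.85 CPM) and the other knockdown libraries lay below all controls. The log2 fold change was -0.37 (95% interval -1.15 to 0.41, edgeR adjusted p = 0.684), and it was -0.77 without PRMT5-shRNA replicate 1 and -0.15 without PRMT5-shRNA replicate 2. IDO2, the IDO1 paralogue, had 32, 56 and 18 counts in NC-shRNA and 17, 38 and 33 in PRMT5-shRNA libraries, again overlapping.

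KYNU, the kynureninase that cleaves kynurenine and 3-hydroxykynurenine, was at 3.97, 4.05 and 4.33 FPKM in NC-shRNA and at 4.07, 4.56 and 4.26 FPKM in PRMT5-shRNA cells. The groups overlapped and the log2 fold change was 0.00 (95% interval -0.16 to 0.16, edgeR adjusted p = 0.993), an interval below the IDO1 estimate. Its sign turned under 5 alternatives.

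Among the 8 tested enzymes, 0 passed an adjusted p of 0.05 by edgeR, where 0.069% of all 20295 tested genes did (0.0493% higher, 0.0197% lower). At an unadjusted p under 0.05, ARG2 and IDO1 were higher and OAT lower, against 6.54% and 6.29% of all genes. With a fold over 1.5 added, 2 of 8 were higher and 0 lower, against 2.53% higher and 1.29% lower of all genes. The groups did not overlap for 2 higher and 1 lower enzyme, against 11% and 10.7% of all genes. DESeq2 called 1 enzyme, ARG2, higher and 0 lower, against 1.81% and 1.36% of the 16723 genes to which it gave an adjusted p. The median log2 fold change was -0.15 over the 8 enzymes and 0.0075 over all genes tested. With so few enzymes these shares describe the set and are not a test of it.

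**Figure D3:**
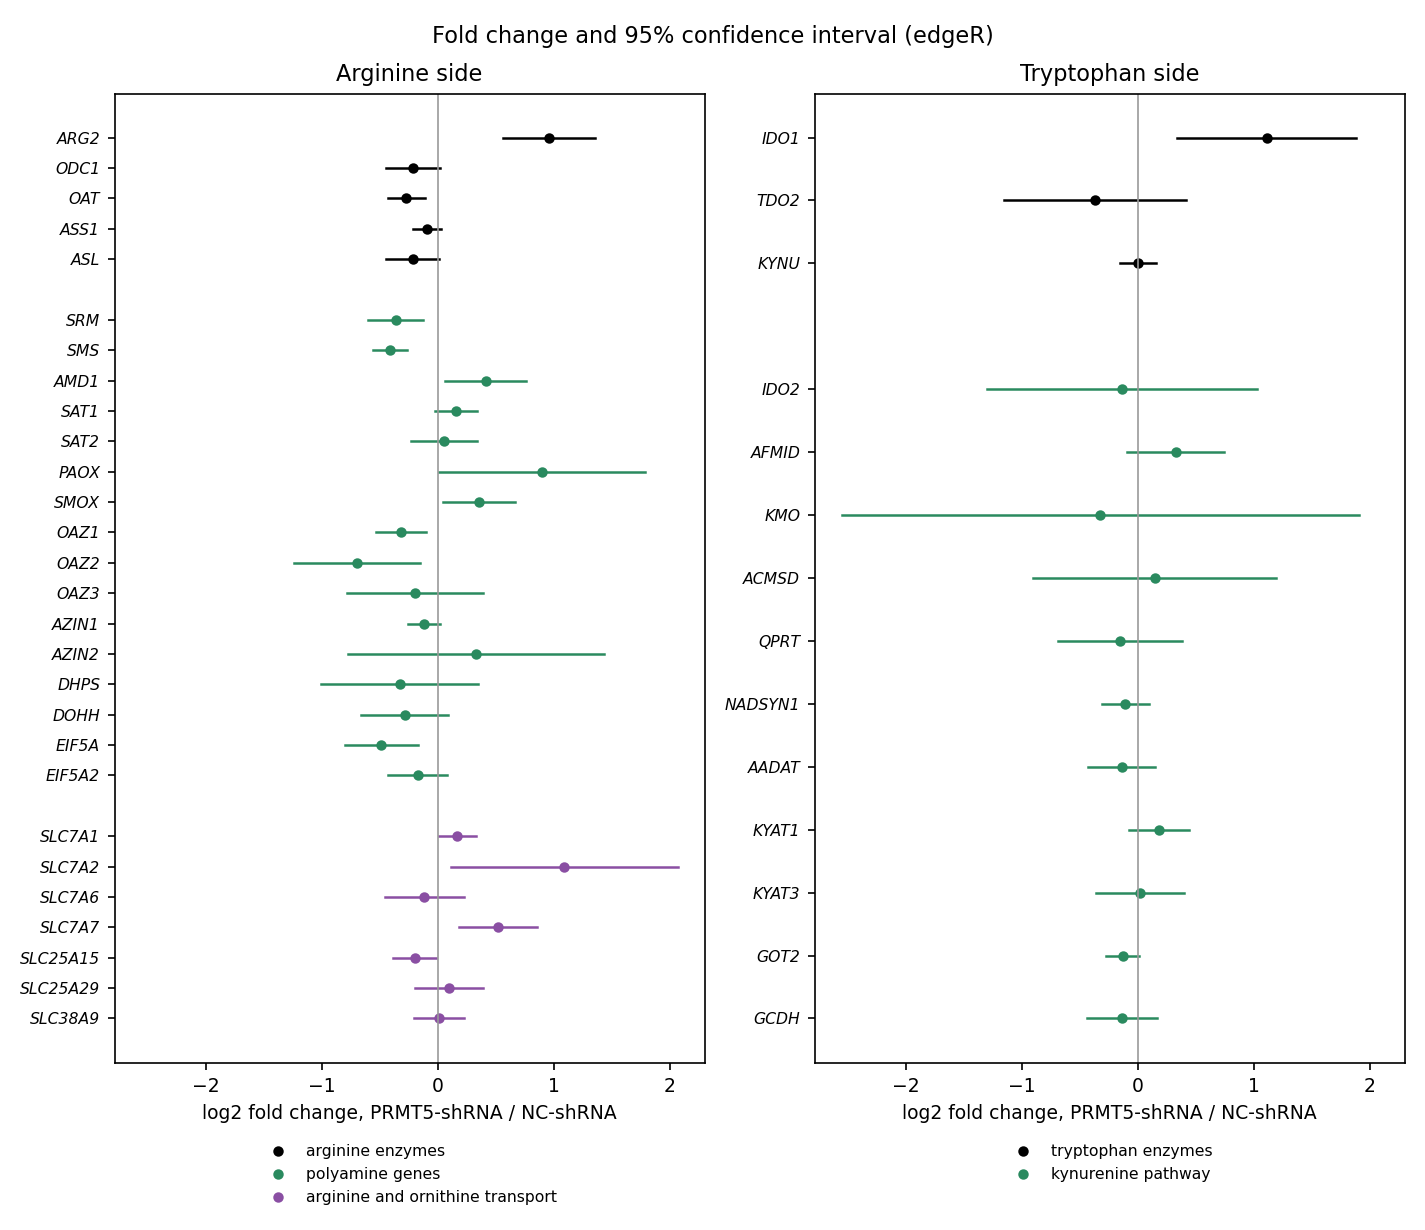
edgeR log2 fold change (PRMT5-shRNA over NC-shRNA, points) with 95% intervals (bars) of the arginine and tryptophan enzymes in black and of tested genes from 3 surrounding lists in colour (polyamine, transport and kynurenine pathway), with a line at 0. ARG2 (0.96) and IDO1 (1.11) have intervals above 0, OAT (-0.27) has one below 0, and the intervals of the other 5 enzymes include 0.

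Within each library, ARG2 and IDO1 were set against the other enzymes of their pathways. ODC1 was at 97.6 ± 7.10 times the FPKM of ARG2 in NC-shRNA and at 42.6 ± 1.40 times in PRMT5-shRNA cells (SD, n = 3 each). OAT went from 16.9 ± 2.74 to 7.03 ± 0.535 times, ASL from 8.01 ± 1.14 to 3.46 ± 0.159 times and ASS1 from 601 ± 84.6 to 284 ± 18.2 times the FPKM of ARG2. On the log2 scale the ratio of ARG2 to its partners was higher in PRMT5-shRNA cells by 1.19 for ODC1, 1.26 for OAT, 1.2 for ASL and 1.07 for ASS1, with no overlap between the groups.

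For tryptophan, IDO1 was at 0.565, 0.379 and 0.360 times the FPKM of TDO2 in the NC-shRNA libraries and at 0.806, 1.46 and 1.88 times in the PRMT5-shRNA libraries. TDO2 was thus above IDO1 in all 3 control libraries, and IDO1 above TDO2 in 2 of 3 knockdown libraries. The log2 ratio differed by 1.62. KYNU went from 38.5 ± 8.90 to 17.9 ± 5.52 times the FPKM of IDO1, a log2 difference of 1.13. Each of the 6 ratios gave p = 0.10 in the exact two-sided permutation test and 0.10 after Benjamini-Hochberg adjustment over the 6, the smallest values this design allows. The ratios share ARG2 or IDO1 and are not independent of each other or of the fold changes above.

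The summed FPKM of IDO1, IDO2 and TDO2 was 0.45, 0.55 and 0.39 in NC-shRNA and 0.62, 0.42 and 0.6 in PRMT5-shRNA cells, with overlap. The share of IDO1 in that sum was 28.9, 20 and 23.1% in NC-shRNA and 40.3, 45.2 and 53.3% in PRMT5-shRNA cells. The makeup of the tryptophan dioxygenases thus differed without overlap between the groups, while their sum did not.

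**Figure D4:**
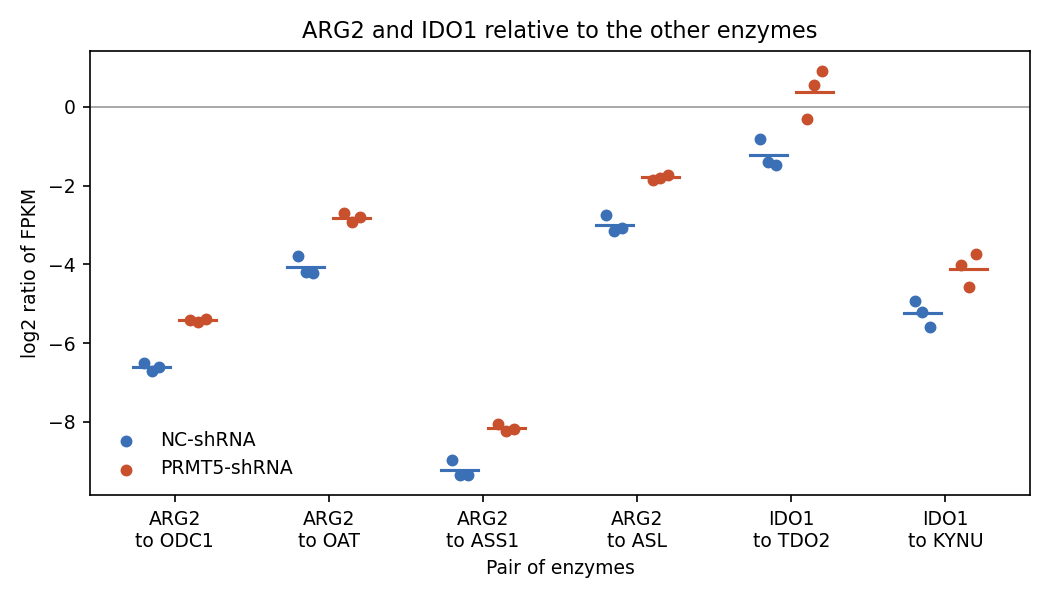
log2 ratio of FPKM per library of ARG2 to ODC1, OAT, ASS1 and ASL and of IDO1 to TDO2 and KYNU, with points for the libraries and lines for the means of each group. Every PRMT5-shRNA point lies above every NC-shRNA point in all 6 ratios, and the IDO1 to TDO2 ratio crosses 0.

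The surrounding pathways were examined through 100 further genes in 8 lists, of which 84 were tested. None passed an adjusted p of 0.05 by edgeR. At an unadjusted p under 0.05, 10 were higher (11.9%) and 10 lower (11.9%), against 6.54% and 6.29% of all genes. DESeq2 called 2 higher (WARS1 and SOCS3) and 2 lower (SMS and EIF5A), near the 1.81% and 1.36% of all genes. The median log2 fold change of the 84 genes was 0.017.

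In the polyamine list, all 16 genes were tested and in 8 of them all knockdown libraries lay below all controls, in 2 above (10.7% and 11% of all genes). At an unadjusted p under 0.05 in edgeR, 5 were lower and 3 higher (6.29% and 6.54% of all genes). The median log2 fold change was -0.19. SMS, spermine synthase, had the lowest p of all pathway genes, at 329 ± 18.4 CPM in NC-shRNA and 247 ± 8.79 CPM in PRMT5-shRNA cells (log2 fold change -0.41, 95% interval -0.56 to -0.26, adjusted p = 0.110 by edgeR and 1.35e-04 by DESeq2). EIF5A, the translation factor that carries the spermidine-derived hypusine, was at 190 ± 27.4 and 141 ± 14.7 FPKM (log2 fold change -0.49, adjusted p = 0.253 by edgeR and 0.0357 by DESeq2). For SRM, spermidine synthase, named after its values were seen, the log2 fold change was -0.36 (edgeR adjusted p = 0.253).

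OAZ2, an antizyme that targets ODC1 protein for degradation, was at 59.5, 56.9 and 52.6 CPM in NC-shRNA and 38.0, 22.3 and 43.9 CPM in PRMT5-shRNA cells. Its log2 fold change was -0.70 (edgeR adjusted p = 0.303) and -0.46 without PRMT5-shRNA replicate 2. PAOX, a polyamine oxidase, went the other way at low counts, with 27, 36 and 17 against 34, 63 and 41. Its log2 fold change was 0.90 (edgeR adjusted p = 0.385). AMD1 and SMOX, named after their values were seen, were also higher and were well expressed. AMD1 was at 8.84 ± 0.141 and 12.3 ± 2.47 FPKM (log2 fold change 0.41, edgeR adjusted p = 0.328), with groups overlapping in CPM. SMOX was at 30.7 ± 2.03 and 40.9 ± 8.22 FPKM (log2 fold change 0.36, edgeR adjusted p = 0.339).

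Of 9 arginine and ornithine transporters, 7 were tested, and 3 were higher and 1 lower at an unadjusted p under 0.05 in edgeR (6.54% and 6.29% of all genes). SLC7A2, a cationic amino acid transporter, was at 140, 146 and 173 CPM in NC-shRNA and at 576, 194 and 210 CPM in PRMT5-shRNA cells. All knockdown libraries were above the controls, but PRMT5-shRNA replicate 1 stood far from the other 2. Its log2 fold change of 1.09 (edgeR adjusted p = 0.345) was 0.40 without that library. SLC7A1, the main housekeeping arginine importer, was at 185 ± 10.2 and 208 ± 11.3 CPM (log2 fold change 0.17, edgeR adjusted p = 0.371).

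In the list of the urea cycle, nitric oxide and creatine, 10 of 13 genes were tested and 2 were lower and 0 higher at an unadjusted p under 0.05 by edgeR (6.29% and 6.54% of all genes), both by less than a fold of 1.5. CPS1, which begins the urea cycle, was abundant at 219 ± 14.6 and 227 ± 0.640 FPKM, whereas OTC, the next step, had 3 counts in 1 library. CKB, brain-type creatine kinase, was at 40.1 ± 5.21 and 42.2 ± 4.23 FPKM. In the ornithine and proline list, ALDH18A1 (log2 fold change -0.12) and PYCR1 (log2 fold change 0.06), both of proline synthesis, were the most expressed of the 6 tested genes. In that list 1 gene was lower and 0 were higher at the same threshold, against the same shares of all genes.

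None of the 11 tested genes of the rest of the kynurenine pathway had an unadjusted p under 0.05 by edgeR or groups that did not overlap in CPM. In FPKM, KYAT1 was higher in every PRMT5-shRNA library. GOT2 (89.2 ± 3.33 and 85.0 ± 2.67 FPKM) and KYAT1 (5.44 ± 0.419 and 6.45 ± 0.583 FPKM), both aminotransferases that can act on kynurenine, were the most and second most expressed. KMO, the hydroxylase before KYNU, had counts between 2 and 49 under NC-shRNA and between 12 and 26 under PRMT5-shRNA, and HAAO, after KYNU, had 0 in all 6. Of 10 tested genes of other tryptophan use and transport, 1 (WARS1) was higher and 0 lower at that threshold, near the 6.54% and 6.29% of all genes, and the groups did not overlap for 3 higher genes and 1 lower gene (11% and 10.7% of all genes). The tryptophan importer SLC7A5 (132 ± 4.09 and 140 ± 4.67 FPKM) and its partner SLC3A2 (39.0 ± 3.18 and 43.8 ± 0.497 FPKM) had log2 fold changes of 0.02 and 0.11. WARS1, the tryptophanyl-tRNA synthetase, was higher in every PRMT5-shRNA library (log2 fold change 0.26, adjusted p = 0.196 by edgeR and 0.0370 by DESeq2).

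Genes of the aryl hydrocarbon receptor response and genes that regulate IDO1 were also counted. Of 8 tested genes of the aryl hydrocarbon receptor response, 1 was higher and 1 lower at an unadjusted p under 0.05 (6.54% and 6.29% of all genes), and the groups did not overlap for 3 higher genes and 1 lower gene (11% and 10.7% of all genes). The gap between the groups was small for CYP1A1 (8.36 against 8.27 CPM) and CYP1B1 (140.7 against 140.5 CPM). The higher ones were CYP1A1, a monooxygenase induced by the receptor (log2 fold change 0.45, edgeR adjusted p = 0.321), AHR, the receptor itself (log2 fold change 0.41, edgeR adjusted p = 0.455), and CYP1B1 (log2 fold change 0.16, edgeR adjusted p = 0.480). NQO1, a quinone reductase, was at 137 ± 27.1 and 108 ± 4.92 FPKM (log2 fold change -0.40, edgeR adjusted p = 0.313). Without NC-shRNA replicate 2 the log2 fold change of NQO1 was -0.23. ALDH3A1 was at 118 ± 11 and 114 ± 5.33 FPKM. Of 16 tested interferon and IDO1 regulators, the groups did not overlap for 3 higher and 0 lower genes, and 2 were higher at an unadjusted p under 0.05 (11%, 10.7% and 6.54% of all genes), SOCS3 (log2 fold change 0.29, adjusted p = 0.196 by edgeR and 0.0271 by DESeq2) and STAT2 (log2 fold change 0.48, edgeR adjusted p = 0.294). JAK1 (0.05) and IRF1 (-0.01) had log2 fold changes near 0, and IFNG had 2 counts in 1 library. STAT2, IRF1, IFNG, WARS1, CYP1A1, AHR and CYP1B1 were named after their values were seen.

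Genes were also ranked by how closely their pattern, the group difference included, followed ARG2 or IDO1, so their own fold changes restate the ranking. NID1, a basement membrane protein, was among the 3 genes whose pattern lay closest to ARG2, with a root mean square difference of 0.122 over the 6 libraries in log2 CPM after each gene was centred on its NC-shRNA mean. AL158839 (0.0724) and MAB21L3 (0.139) were the other two. KCNK6, a potassium channel (0.148), AL157827 (0.163) and MAGED4 (0.169) lay closest to IDO1, and MAGED4 is uncertain because of its near-identical copy MAGED4B.

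Markers of the labelled cell type and of cells that could bring ARG2, ARG1, IDO1 or TDO2 were measured in the same libraries. The 12 myeloid markers summed to 44.1 to 45.8 FPKM in NC-shRNA and 36.2 to 40.2 FPKM in PRMT5-shRNA cells, with AIF1 and TYROBP at 0 counts. Of the 6 myeloid markers tested, 0 were higher and 2, LYZ and S100A9, were lower in every knockdown library, against 11% and 10.7% of all genes tested. The 5 epithelial markers summed to 283 to 313 FPKM in NC-shRNA and 264 to 276 FPKM in PRMT5-shRNA cells, and 2 of them, KRT8 (log2 fold change -0.23, edgeR adjusted p = 0.251) and EPCAM (log2 fold change -0.34, edgeR adjusted p = 0.575), were lower in every knockdown library, against 10.7% of all genes tested. The 7 lymphoid markers summed to at most 0.130 FPKM, with CD3D, CD3E, CD2 and MS4A1 at 0. Of 6 hepatocyte markers, ALB, APOA1, TTR and APOB were at 0, and the sum of all 6 was 0.31 to 0.35 FPKM in NC-shRNA and 0.44 to 0.72 FPKM in PRMT5-shRNA cells. SERPINA1, the 1 hepatocyte marker tested, was higher in every knockdown library (log2 fold change 0.90, adjusted p = 0.223 by edgeR and 0.0425 by DESeq2). The 6 fibroblast markers summed to 10.3 to 11.4 and 10.2 to 12.4 FPKM, and 2 of the 5 tested were higher in every knockdown library (11% of all genes tested), COL3A1 (log2 fold change 0.87, adjusted p = 0.110 by edgeR and 5.73e-06 by DESeq2) and PDGFRB (log2 fold change 0.57, edgeR adjusted p = 0.231).

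Of 7 endothelial markers 5 were tested, and 1, VWF, passed an adjusted p of 0.05 by edgeR. Their sum was 1.45 to 1.6 FPKM in NC-shRNA and 2.03 to 2.66 FPKM in PRMT5-shRNA cells, and 4 of the 5 tested were higher in every knockdown library, against 11% of all genes tested. DESeq2 called 2 of the 5, against 1.81% of all genes. The fifth, TEK, overlapped (log2 fold change 0.01, edgeR adjusted p = 0.995). VWF rose from 0 counts in all 3 controls to 128, 105 and 122 counts under knockdown (edgeR adjusted p = 0.0341), and PECAM1 had 30, 5 and 8 against 104, 100 and 109. The part of these marker differences in the ARG2 and IDO1 values was not tested.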

How the data were processed

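RNA-seq of 3 NC-shRNA and 3 PRMT5-shRNA cultures of NCI-H460 cells was analysed. Per the labels and methods, the authors trimmed reads with cutadapt 1.9, mapped them with HISAT2 2.0.4 and assembled expression with StringTie 1.3.4d on GRCh38 (submitters' processing notes; the methods name a mouse build). For every gene the authors deposited an unnormalized estimated count in each library and FPKM, scaled for length and library size. The counts were whole numbers, so rounding changed nothing. How strand and overlapping genes were counted is not given in the sources used here.

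Counts were scaled by TMM, filtered with filterByExpr and tested with edgeR 4.0.16 (R 4.3.3, quasi-likelihood, Benjamini-Hochberg over 20295 genes). Levels between genes were compared as FPKM. Single values were also compared by exact two-sided permutation. Alternatives within edgeR were RLE scaling, no filter, counts divided by 4, a replicate block and omission of each library in turn. Further alternatives were DESeq2 1.42.0 on the undivided counts, a linear model per gene, and limma 3.58.1 on log2(FPKM + 1) or log2(FPKM + 0.1). The FPKM fits required a mean FPKM of at least 0.5, except for limma on log2(FPKM + 1) without a filter. Named were the members, PRMT5, list genes with an unadjusted p under 0.05 and a fold over 1.5, the 2 most expressed genes per list, and the 3 genes nearest in pattern to ARG2 and to IDO1. All other genes, such as NOS1, NOS3, GATM, OTC, SRM, IDO2, KMO, HAAO and the markers given with values, were named after their values were seen. The values of 1 other gene of these lists are not reported here. The members and lists were chosen with earlier results of these data known. Positions and overlaps came from GENCODE release 29 of GRCh38, and promoters of 8 of the 10 members from RefSeq.

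In simulated counts for this comparison, 200 genes were changed, with a minimum mean count of 30. Over 19560 genes, edgeR found 58% of 2-fold and 87% of 4-fold changes, and 6 of its 151 calls were false. Over 20278 genes, DESeq2 found 71% and 93%, and 66 of its 230 calls were false. No 2 libraries were duplicates, since the smallest chi-square per degree of freedom between libraries was 42.2.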

Additional observations from a re-analysis of the deposited data

How the results depend on the processing

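ARG2 kept its direction under all 15 alternatives and passed the adjusted threshold under DESeq2 only (log2 fold change 0.96), and IDO1 kept its direction under all 12 it could be given. The number of genes called over all genes moved from 14 to 530 with DESeq2, 2 with a linear model per gene on log2(FPKM + 1) and 0 with the replicate block, where 2382 genes had an unadjusted p under 0.05. Leaving out 1 library gave 8 to 25 genes (8 without NC-shRNA replicate 2, 25 without NC-shRNA replicate 3, 9 without PRMT5-shRNA replicate 1). PRMT5 no longer passed under the linear model (-1.49) or the replicate block (-1.62). DESeq2 raised the count over the pathway lists, members included, from 0 to 5.

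The replicate numbers are shared by both groups, but same-numbered libraries did not deviate together over the tested genes (correlations 0.035, -0.010 and -0.015). These correlations show no broad shared shift, but they cannot tell whether same-numbered cultures were handled together. With the replicate block ARG2 was at 0.97 (edgeR adjusted p = 0.366) and IDO1 at 1.09 (edgeR adjusted p = 0.399).

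Values near 0 turned sign. KYNU was -0.0032 with RLE scaling, -0.0030 with DESeq2 and -0.049 to 0.039 with a library left out. CPS1 was 0.059 with limma on either FPKM scale, with limma on log2(FPKM + 1) without a filter and with the linear model, 8.77e-04 with counts divided by 4 and -0.041 to 0.016 with a library left out. CKB ran from -0.093 to 0.091 and PYCR1 from -0.21 to 0.20 with a library left out. The causes were not tested. IDO1 and TDO2 fell under the FPKM filter in 3 fits and have no value there. Depth limits IDO1, which rests on 6 to 19 fragments a library.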
